A study of Mus musculus with 6 samples.

Results

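The 10 genes described here are the regulators SOX10 and MITF, the pigment enzymes TYR, TYRP1 and DCT, the melanosome proteins PMEL, MLANA and GPNMB, the receptor EDNRB and the calcium-binding protein S100B. They were chosen by their human Ensembl identifiers as a list of pigment lineage genes, out of 14202 identified genes in 15234 loci. RNA was sequenced from subcutaneous tumours that A375 cells, an established human melanoma line, formed in BALB/c nude mice, which lack a thymus. The vehicle group and the group given ZLD1039 at 100 mg/kg by daily oral gavage held 5 mice each, and 3 tumours of each, taken on day 27, were sequenced. ZLD1039 is an inhibitor of EZH2, the enzyme of Polycomb repressive complex 2 that methylates histone H3 at silenced genes. All 6 tumours came from the same cell line, labelled as wild type, and their labels differ by treatment only. The labels do not say that each tumour came from its own mouse, so the p-values speak only for the spread among the 6 tumours.

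SOX10 is a transcription factor of the neural crest and of the cells derived from it, and it drives MITF in melanocytes. MITF, a basic helix-loop-helix leucine zipper factor, drives the genes that make and package pigment. Its gene has a series of alternative first exons, and the one closest to the exons shared by all forms gives the form typical of melanocytes. Melanin is made by TYR, TYRP1 and DCT inside melanosomes, whose fibrils are built from PMEL.

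SOX10 and MITF were present in every tumour, while the genes that make pigment were unlisted or near 0 in both groups. SOX10, GPNMB, S100B and MITF were listed in all 6 tumours, PMEL in 3 and TYRP1 in 1. TYR, DCT, MLANA and EDNRB were listed in none. The label names melanoma cells. Of the genes that define the pigment lineage, the broad markers SOX10 and S100B were present, and the differentiation markers TYR, DCT and MLANA were unlisted. The other members did not all follow that split: the receptor EDNRB was also unlisted, while the melanosome gene GPNMB was listed in all 6 tumours and PMEL in 3. The tables give transcript events such as start sites, end sites and exons, each in FPKM, that is, sequenced fragments scaled by transcript length and library size. The value of a locus was taken from its events and is a lower bound. Events missing from a tumour's list, and genes with no listed event, were set to 0. A missing event need not mean that no transcript was there. The only listed SOX10 end site stood far below the leading SOX10 start, and MITF and GPNMB had no listed end site. The depth of the libraries is unknown, and no upper limit can be given for the unlisted genes. Of the 4570 loci whose median, over the tumours that list them, exceeds 10 FPKM, 4545 were listed in all tumours. Where that median is above 0.5 and up to 1 FPKM, only 19.3% of loci were. A gene unlisted in a tumour can therefore still be expressed there. These counts cover only loci that some tumour lists, so they do not bear on TYR, DCT, MLANA and EDNRB.

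Averaged over the 6 tumours, SOX10 stood at 44.7 FPKM, above 93.7% of all listed loci. GPNMB stood at 11.5 FPKM, above 73.0% of loci, and S100B at 4.43 FPKM, above 51.5%. MITF stood at 1.39 FPKM, above 34.3% of loci. PMEL and TYRP1 averaged 0.135 and 0.011 FPKM, above 13.9% and 1.46% of loci. The order SOX10, GPNMB, S100B held in each of the 6 tumours. S100B exceeded MITF in 5 of 6, so those neighbours were not separated in every tumour. By these values SOX10 exceeded MITF 15.4-fold to 86.7-fold within a tumour. Both values are lower bounds, so this range does not bound the ratio of the true levels.

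**Figure D1:**
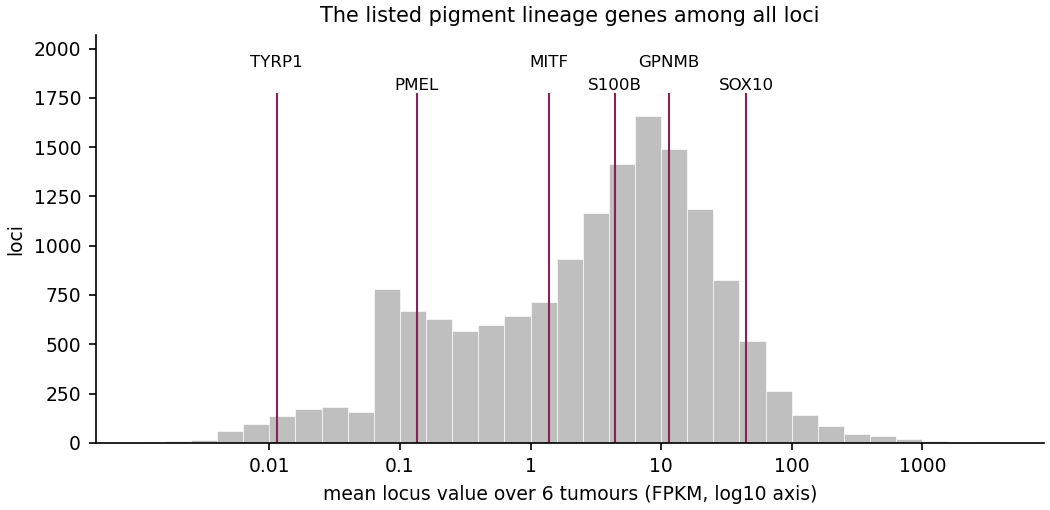
Grey bars count all loci by their mean value over the 6 tumours (x axis, FPKM on a log10 axis, with 9 loci outside the range drawn), and lines mark the 6 listed pigment lineage genes. SOX10 at 44.7 FPKM lies in the upper part of the distribution, MITF at 1.39 FPKM below its peak, and PMEL and TYRP1 in the lower tail.

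None of the 4 genes that could be tested was called as different between the treatments. Loci with a group mean of at least 1 FPKM were tested with limma on log2(FPKM + 1) across 10834 loci, with Benjamini-Hochberg adjustment at 0.05. Of the 10 genes only SOX10, GPNMB, S100B and MITF reached that level, and 0 of the 4 passed, while 0.0185% of all loci tested passed. An unadjusted p under 0.05 was found for 1 of the 4, SOX10, against 4.94% of all loci. That count of 1 became 0 when vehicle tumour 3, ZLD1039 tumour 2 or ZLD1039 tumour 3 was left out, where limma's p for SOX10 was 0.069, 0.0755 and 0.0747 (adjusted p = 0.935, 0.944 and 0.821). Over all loci tested the median log2 difference, ZLD1039 minus vehicle, was 0.02.

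Along the first principal component of all loci tested, ZLD1039 tumour 2 lay at 51.9, and the other 5 tumours between -13.3 and -4.02. Without that tumour the log2 differences of SOX10, S100B, MITF and GPNMB were -0.80, -0.22, -0.45 and 0.19. In bulk tumour RNA, fewer cells of a type and less RNA per cell cannot be told apart. The positions are human although the labels name the mouse, so mouse host RNA placed on human genes cannot be separated.

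SOX10 (ENSG00000100146, chromosome 22, 38366693 to 38380415, minus strand) measured 48.8, 56.0 and 70.0 FPKM in vehicle tumours 1, 2 and 3. In the ZLD1039 tumours it measured 50.2, 21.8 and 21.3 FPKM. ZLD1039 tumours 2 and 3 lay below every vehicle tumour, while ZLD1039 tumour 1 lay within the vehicle range, so the groups overlapped. The vehicle mean was 58.3 ± 10.8 FPKM and the ZLD1039 mean 31.1 ± 16.5 FPKM (SD, n = 3). The log2 difference was -0.98 with a standard error of 0.33 and a 95% interval of -1.75 to -0.22 (limma, unadjusted p = 0.0185, Benjamini-Hochberg adjusted p = 0.881). Without ZLD1039 tumour 2 it was -0.80 and without ZLD1039 tumour 3 it was -0.78. Without ZLD1039 tumour 1, the one at vehicle level, it was -1.38 (limma, adjusted p = 0.345). The adjusted p ranged from 0.345 to 0.996 over the 14 alternatives tried.

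Nearly all SOX10 transcripts began at 1 start site. The first exon at 38380346 to 38380415 carried 98.8, 96.9 and 94.0% of the start abundance in the vehicle tumours and 96.9, 91.1 and 99.4% in the ZLD1039 tumours. The difference in this share was -0.791 percentage points with a 95% interval of -8.04 to 6.46 (limma, adjusted p = 0.966). The exon at 38379364 to 38379875, 512 bases long, was joined to it in every tumour and was never listed as skipped. Its abundance equalled that of the start: 48.2, 54.3 and 65.8 FPKM under vehicle and 48.6, 19.9 and 21.1 FPKM under ZLD1039. It was also the SOX10 event with the smallest p (log2 difference -0.995, limma, unadjusted p = 0.0281, adjusted p = 0.859).

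A second SOX10 start lay 994 bases downstream of the first, within that exon. It was listed at 0.601, 1.52 and 4.04 FPKM under vehicle and at 1.37, 1.95 and 0.138 FPKM under ZLD1039. The only listed SOX10 end site, 38366693 to 38367305, had the same FPKM as this minor start in all 6 tumours, within 1e-05 FPKM. The share of the minor start was highest in ZLD1039 tumour 2, at 8.91%, and lowest in ZLD1039 tumour 3, at 0.649%, so both extremes lay in the treated group. The vehicle tumours also spread, at 1.23, 2.72 and 5.77%. The difference in that share was 0.856 percentage points (limma, adjusted p = 0.956).

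The files give the SOX10 identifier to a small locus on the opposite strand as well, at 38369012 to 38369382. It was listed in vehicle tumour 2 alone, at 0.690 FPKM. Whether the abundances were estimated by strand is not given in the sources used here, so reads of SOX10 and of this locus cannot be told apart.

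**Figure D2:**
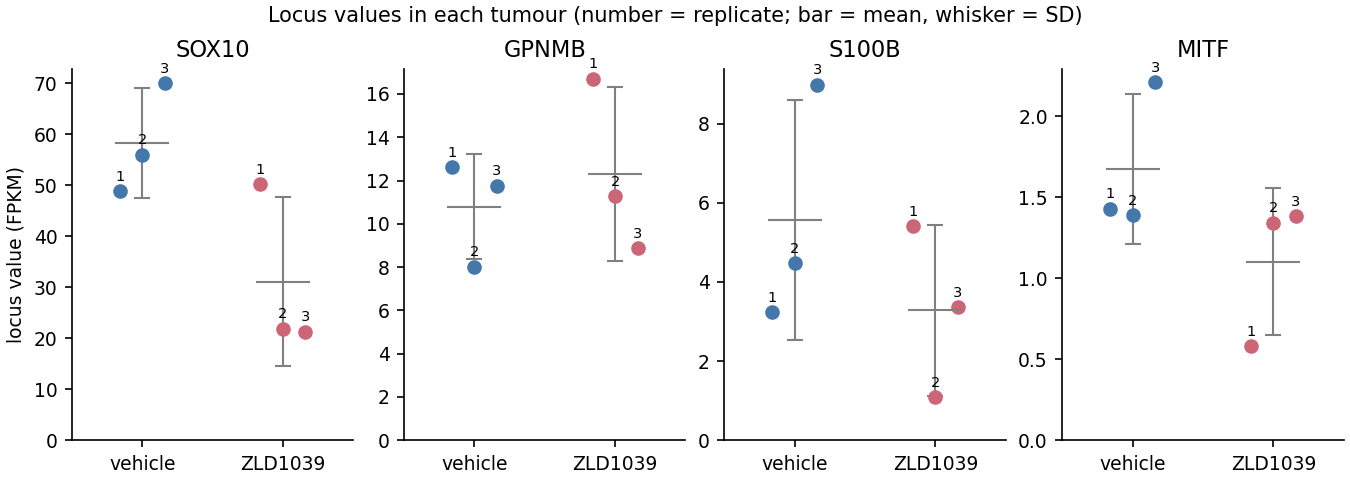
Points give the locus value (FPKM, y axis from 0, a separate scale for each gene) of SOX10, GPNMB, S100B and MITF in each tumour, numbered by replicate, with the mean and SD of each group of 3. For SOX10, ZLD1039 tumours 2 and 3 sit at 21.8 and 21.3 FPKM, below the vehicle tumours, and ZLD1039 tumour 1 sits at 50.2 FPKM; for MITF the groups are separated by 0.0051 FPKM only.

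MITF (ENSG00000187098, chromosome 3, listed events from 69788586 to 70001037, plus strand) measured 1.43, 1.39 and 2.21 FPKM in vehicle tumours 1, 2 and 3. The ZLD1039 tumours measured 0.579, 1.34 and 1.38 FPKM. The groups did not overlap, by a gap of 0.0051 FPKM between vehicle tumour 2 and ZLD1039 tumour 3. Among all loci tested, 5.2% had every ZLD1039 tumour below every vehicle tumour. The means were 1.68 ± 0.462 and 1.10 ± 0.453 FPKM (SD, n = 3). The log2 difference was -0.36 with a standard error of 0.29 and a 95% interval of -1.02 to 0.30 (limma, adjusted p = 0.881). It was -0.17 without ZLD1039 tumour 1 and -0.22 without vehicle tumour 3. With a pseudocount of 0.1 in place of 1 it was -0.62 (limma, adjusted p = 0.880).

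ZLD1039 tumour 1 thus held the lowest MITF value and, among the treated tumours, the highest SOX10 value. Vehicle tumour 3 held the highest value of both genes.

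MITF transcripts began mostly at the start sites far upstream. The first, at 69788586, lies 198387 bases before the first exon common to all listed transcripts, and the next, at 69928256, lies 58717 bases before it. The last, at 69985738, lies 1235 bases before it. From background knowledge of the gene this last position is that of the melanocyte form, although the files name no isoforms. The summed starts equalled the abundance of the first common exon in all 6 tumours, within 1e-05 FPKM.

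The first start was listed at 0.943, 1.11 and 0.831 FPKM under vehicle and at 0.579, 1.00 and 0.196 FPKM under ZLD1039. The next start was listed at 0.487, 0.282 and 1.16 FPKM under vehicle and at 0.340 and 1.19 FPKM in ZLD1039 tumours 2 and 3, and was unlisted in ZLD1039 tumour 1. The start next to the common exons was listed in vehicle tumour 3 alone, at 0.217 FPKM.

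As shares, the first start carried 65.9, 79.7 and 37.6% of MITF start abundance under vehicle and 100, 74.7 and 14.2% under ZLD1039. It led in vehicle tumours 1 and 2 and ZLD1039 tumours 1 and 2, and the next start led in vehicle tumour 3 and ZLD1039 tumour 3. The group means were 61.1 ± 21.4% and 63.0 ± 44.1% (SD, n = 3), a difference of 1.90 percentage points with a 95% interval of -57.2 to 61.0 (limma, adjusted p = 0.992). An interval this wide leaves the use of these starts under treatment unresolved at these low FPKM values. The share of the next start differed by 1.36 points (limma, adjusted p = 0.995) and that of the last by -3.27 points (limma, adjusted p = 0.764).

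Over all loci, 0% of 21321 start site shares passed the threshold, and 0 of the 8 tested here did. By limma, 530 of the 21321, or 2.49%, had an unadjusted p under 0.05, and 0 of the 8 did.

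**Figure D3:**
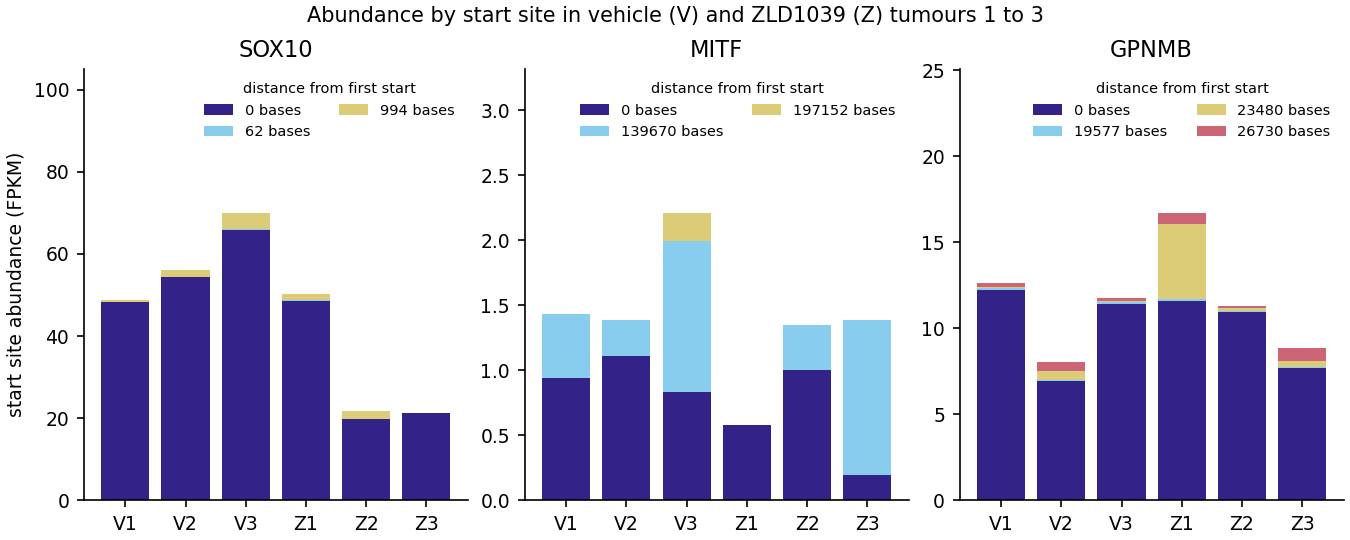
Stacked bars give the abundance (FPKM, y axis from 0) of each start site of SOX10, MITF and GPNMB in vehicle tumours V1 to V3 and ZLD1039 tumours Z1 to Z3, coloured by distance from the first start of the gene. SOX10 uses 1 start almost alone, the MITF mix varies from tumour to tumour in both groups, and a GPNMB start 23480 bases downstream stands out at 4.38 FPKM in ZLD1039 tumour 1.

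MITF also varied in the exon at 70000963 to 70001037, whose longer form has 75 bases and whose shorter form, beginning at 70000981, has 57. The 18 bases between them encode, from background knowledge, a short insert just before the DNA-binding region of the protein. The longer form made up 65.3% of the exon in vehicle tumour 1, 1.27% in vehicle tumour 3 and 11.7% in ZLD1039 tumour 3, and was unlisted in the other 3 tumours. The shorter form was listed in all 6, at 0.496, 1.39 and 2.18 FPKM under vehicle and 0.579, 1.34 and 1.22 FPKM under ZLD1039. A short exon of 39 bases at 69887745 to 69887783 was listed as skipped in every tumour and as included in none.

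The pigment enzymes were nearly undetected in both groups. TYR (ENSG00000077498), which catalyses the first steps of melanin synthesis, was listed in 0 of 6 tumours. DCT (ENSG00000080166), which acts on the intermediate dopachrome, was also listed in 0 of 6. TYRP1 (ENSG00000107165, chromosome 9, listed events from 12707671 to 12710266, plus strand) was listed in vehicle tumour 1 alone, at 0.068 FPKM, with 1 start and 1 end event. None of the 3 enzymes reached the level for a test.

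Among the melanosome genes GPNMB was well listed, PMEL scarcely and MLANA not. PMEL (ENSG00000185664, chromosome 12, listed events from 56350843 to 56359809, minus strand) was listed at 0.457 FPKM in vehicle tumour 1, 0.080 FPKM in vehicle tumour 2 and 0.271 FPKM in ZLD1039 tumour 3. In vehicle tumour 1 its only events were a retained intron of 128 bases at 56350843 to 56350970, listed under both the exact and the approximate retention kind. In the other 2 tumours the events were a start site and inclusion of internal exons. MLANA (ENSG00000120215), a melanosome protein and a common diagnostic antigen of melanoma, was listed in 0 of 6 tumours.

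GPNMB (ENSG00000136235, chromosome 7, 23286182 to 23313233, plus strand) is a membrane glycoprotein of melanosomes that macrophages and other cells also make. It measured 12.6, 8.02 and 11.8 FPKM in the vehicle tumours and 16.7, 11.3 and 8.86 FPKM in the ZLD1039 tumours. The highest value was that of ZLD1039 tumour 1 and the groups overlapped. The means were 10.8 ± 2.44 and 12.3 ± 4.02 FPKM (SD, n = 3). Their log2 difference was 0.15 with a 95% interval of -0.45 to 0.76 (limma, adjusted p = 0.926). It was -0.08 without ZLD1039 tumour 1 and -0.03 without vehicle tumour 2.

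The first GPNMB start, at 23286182, carried most of the abundance in every tumour. It was listed at 12.2, 6.94 and 11.4 FPKM under vehicle and at 11.6, 10.9 and 7.66 FPKM under ZLD1039, a log2 difference of -0.00084 with a 95% interval of -0.65 to 0.65 (limma, adjusted p = 0.9995). The excess of ZLD1039 tumour 1 lay at a start 23480 bases downstream, at 23309662 to 23309794. This start was listed at 4.38 FPKM there and at 0.0504, 0.494 and 0.0423 FPKM in vehicle tumours 1, 2 and 3 and 0.190 and 0.378 FPKM in ZLD1039 tumours 2 and 3. It made up 26.2% of GPNMB start abundance in ZLD1039 tumour 1 and 0.36 to 6.15% in the other 5. Its share differed by 8.42 percentage points between the groups with a 95% interval of -8.50 to 25.3 (limma, adjusted p = 0.764), by 0.670 points without that tumour and by 12.9 points without ZLD1039 tumour 2.

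Alternative ends of GPNMB exons were nearly uniform except in ZLD1039 tumour 3. The exon ending at 23306234 has a form of 99 bases and one 36 bases longer. The longer form made up 21.3% of the exon in ZLD1039 tumour 3 and 0.044 to 0.27% in the other 5 tumours. An exon form at 23300075 to 23301184, which is 792 bases longer than the usual one, was listed in the same tumour alone, at 12.0% of that exon. Exons at 23290381 to 23290481 and 23296511 to 23296684 did not vary: the first was listed as skipped only and the other as included only, in all 6 tumours.

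EDNRB (ENSG00000136160), the endothelin receptor that melanocyte precursors need to migrate and survive, was listed in 0 of 6 tumours. S100B (ENSG00000160307, chromosome 21, 48018875 to 48025121, minus strand), a calcium-binding protein of glia and melanocytes and a serum marker of melanoma, was listed in all 6. It measured 3.24, 4.48 and 8.98 FPKM in the vehicle tumours and 5.41, 1.09 and 3.36 FPKM in the ZLD1039 tumours. Vehicle tumour 3 was highest and ZLD1039 tumour 2 lowest, and the groups overlapped.

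The S100B means were 5.57 ± 3.02 and 3.29 ± 2.16 FPKM (SD, n = 3). The log2 difference was -0.66 with a standard error of 0.46 and a 95% interval of -1.72 to 0.40 (limma, adjusted p = 0.881). It was -0.22 without ZLD1039 tumour 2, the one that stands apart over all loci tested, and -0.31 without vehicle tumour 3. Without ZLD1039 tumour 1 it was -1.03, so the size moved with the tumours kept.

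All S100B transcripts began at 1 start and ended at 1 end site, and differed by an exon of 94 bases at 48020195 to 48020288. That exon was included in 0, 16.4 and 21.8% of S100B abundance in the vehicle tumours and in 14.1, 37.7 and 19.96% in the ZLD1039 tumours. The highest inclusion was in ZLD1039 tumour 2, the tumour with the lowest S100B value. The means were 12.7 ± 11.3% and 23.9 ± 12.3% (SD, n = 3), a difference of 11.2 percentage points with a 95% interval of -13.1 to 35.5 (limma, adjusted p = 0.719). The difference was 4.33 points without ZLD1039 tumour 2, 4.86 points without vehicle tumour 1 and up to 16.1 points without another tumour. It was the only exon or intron of the 10 genes that could be tested, and it was not called. Of the 13274 exons and introns tested over all loci, 0% passed, and 278, or 2.09%, had an unadjusted p under 0.05 by limma, the S100B exon not among them.

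Longer forms of the S100B exon whose lowest position is 48022191 appeared in single tumours. A form 7 bases longer made up 7.14% in vehicle tumour 3, and a form 45 bases longer made up 19.5% in ZLD1039 tumour 3. The usual form of 139 bases was used alone in the other 4 tumours.

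**Figure D4:**
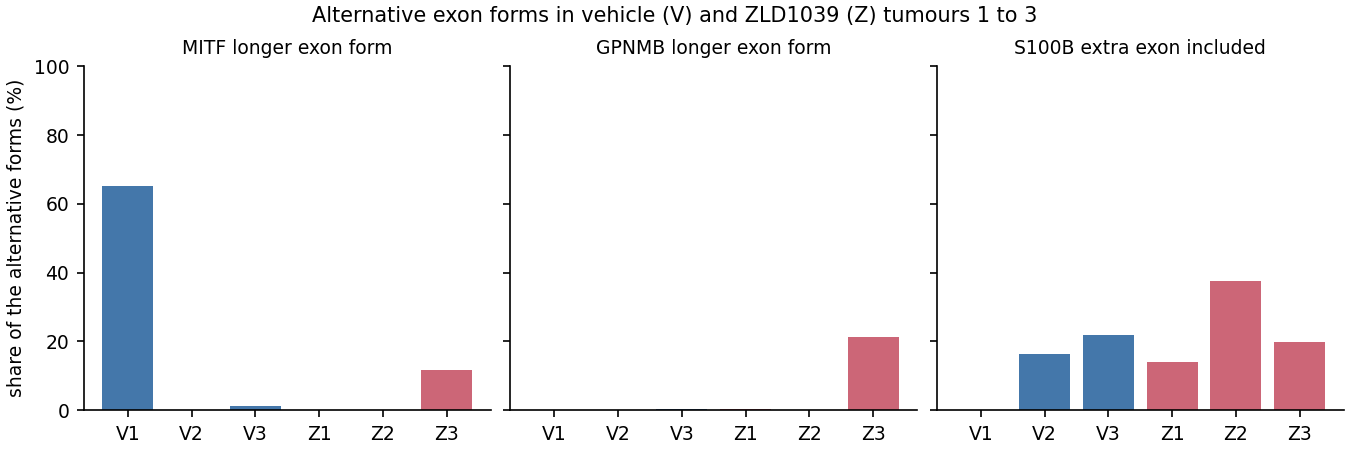
Bars give, in percent and for each vehicle (V1 to V3) and ZLD1039 (Z1 to Z3) tumour, the share of the longer MITF exon form, of the GPNMB exon form that is 36 bases longer, and of S100B abundance that includes the exon of 94 bases. The MITF form stands at 65.3% in 1 vehicle tumour, the GPNMB form at 21.3% in 1 ZLD1039 tumour, and S100B inclusion spans 0 to 21.8% under vehicle and 14.1 to 37.7% under ZLD1039.

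Across the listed events of these genes no single event was called. The tables held 47 events in the 6 listed genes, of which 21 reached a group mean of 1 FPKM. Of these 21, 0 passed the threshold (limma, smallest adjusted p = 0.859), while 0.0364% of the 85258 events tested over all loci did. An unadjusted p under 0.05 was found for 2 of the 21, the leading SOX10 start and the exon joined to it, which share their values, and for 4.72% of all events. That count stayed 2 without ZLD1039 tumour 1 and was 0 without any other single tumour, where the unadjusted p of the SOX10 exon was 0.0587 to 0.110 (limma).

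**Figure D5:**
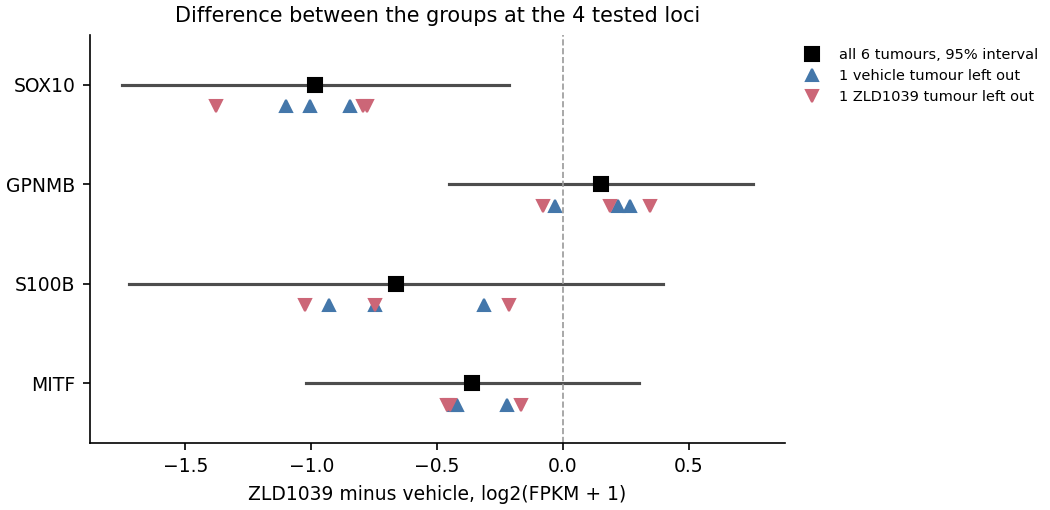
Squares give the difference between the groups (x axis, ZLD1039 minus vehicle, on the log2(FPKM + 1) scale) with its 95% interval for the 4 tested loci, and triangles the same difference with 1 tumour left out. SOX10 stays between -1.38 and -0.78, S100B spans -1.03 to -0.22, MITF -0.46 to -0.17, and GPNMB crosses 0, from -0.08 to 0.34.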

How the data were processed

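The authors deposited, for each tumour, a table of transcript events with an FPKM value per event, per the file headers. HTSeq 0.6.1, bcl2fastq 2.17.1.14 and the build mm10 appear in the submitters' processing notes; which aligner, assembler and event caller were used is not given in the sources used here. Chromosome numbers reach 22 and chromosome 1 position 249214145, past mm10's last annotated position, 195323493. From background knowledge the positions are those of human GRCh37; no human genome, annotation or sequence was used, so no sequence is printed. Gene names came with the list of identifiers. Further pigment genes and markers of other cell types, listed by symbol, were not analysed here, because no table used here pairs human identifiers with symbols.

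Each locus took the largest of its summed starts, summed ends and highest event. Events were matched by locus, type, position and strand. Loci and events with a group mean of at least 1 FPKM entered limma 3.58.1 (R 4.3.3) as log2(FPKM + 1), which understates changes of low values, with a mean-variance trend and no replicate block, over all features. Shares needed a mean total of at least 1 FPKM, a total above 0 in all 6 tumours and a mean share of 1 to 99%. Exon form shares were not tested. The tests were checked on simulated data. The named genes are all 10; named events are all MITF starts, the leading start and end of the others, and the event with the smallest p in each. Other exon events, minor starts and the opposite-strand locus were picked after their values were seen. The genes and tests were chosen with earlier results of these data known. Depth is unknown, so no counting error is given.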

Additional observations from a re-analysis of the deposited data

How the results depend on the processing

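None of the genes that could be tested was called for its locus, events, start shares or exon shares in any setting tried. Of their loci 4 were tested, or 7 with no filter, and TYR, DCT, MLANA and EDNRB never were. Over all loci, limma called 2; the count was 0 with a replicate block, with summed start events and with no filter. It was 1 with no mean-variance trend, a pseudocount of 0.1, the largest event, median-of-ratios scaling or quantile normalization, and 0 to 1 with 1 tumour left out. The 31 called events became 0 with the replicate block, 60 with no trend, 7 with no filter and 0 to 5 with 1 tumour left out. With no trend, 0 start shares became 11 and 0 exon and intron shares became 15. The cause was not tested.

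The log2 differences of SOX10, S100B and MITF kept their sign in all 14 alternatives. That of GPNMB became -0.00084 when a locus was given its largest event, and ranged from -0.078 to 0.34 with 1 tumour left out. Some start shares also changed sign with 1 tumour left out. They ranged from -16.6 to 26.3 and -23.0 to 19.9 percentage points for MITF at 69788586 and 69928256. For SOX10 the range was -1.55 to 2.58 at 38379364 and -2.58 to 1.55 at 38380346, and for GPNMB at 23312912 it was -0.942 to 2.96. Other start shares did not reverse: GPNMB at 23286182 (-15.6 to -1.81) and 23309662 (0.670 to 12.9), and MITF at 69985738 (-4.90 to 0). Matching events by the files' identifier, an alternative chosen after seeing the data, gave 30 events.

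The deviations of same-numbered tumours from their group means correlated at r = -0.03, 0.02 and -0.06 over the loci tested. Pairs with unlike numbers ranged from -0.063 to 0.105. With 3 tumours a group, such values cannot show whether the replicate number marks a shared batch. The precision is that of 3 tumours a group, given by the 95% intervals, and unlisted genes carry no upper limit.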
